A study of Mus musculus with 24 samples.

Results

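Dorsal telencephalon was taken from mouse embryos at E14.5, without culture, and 3 Cep135 (-/-) embryos (mutants 1, 2 and 6) were compared with 3 Cep135 (+/+) embryos (controls 3, 4 and 5). These 6 libraries were chosen by their labels out of the 24 in the series, which also holds E11.5 cortex and progenitor cultures of 12 h and 24 h. The null allele, made by genome editing of zygotes, carries a small deletion in an early exon in every cell of the embryo rather than in the cortex alone. The labels name no other allele or treatment for either group. Each library carries its own sample number, which was taken as 1 embryo.

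Cep135 is a core protein of the centriole, needed to build its cartwheel and to recruit later assembly factors. When centrioles fail to duplicate, dividing progenitors assemble slow or faulty spindles, and a surveillance pathway that runs through 53BP1, Usp28 and p53 can halt the cell or remove it. In the dorsal cortex at this age, radial glia divide at the ventricle, intermediate progenitors divide above them, and young glutamatergic neurons that switch on Neurod factors migrate out to form the deep layers first. Mutations of the human gene cause primary microcephaly.

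The libraries were checked before any comparison. They held 6048513 to 9647570 reads on genes, so that 1 read was worth 0.726 to 1.18 normalised counts. The dorsal markers Eomes (1366 to 1840 normalised counts) and Tbr1 (711 to 914) were present in all of them. Tcf7l2, a marker of diencephalon, stood at 2365 in mutant 2 and at 289 to 861 in the others. Mutants 1 and 2 were female (Xist at 4714 and 4735 normalised counts), whereas mutant 6 and all 3 controls were male (Xist of at most 13.8), so sex and genotype were partly confounded. Controls 4 and 5 held liver transcripts (summed level of the 13-gene liver list 1151 and 1156, against 58.7 to 90.5 in the other libraries), although Afp stood at 0 in both. The description of mutant 6 names E11.5 while its title names E14.5. The title and source were followed. Its nearest library of all 24 was control 5, its Neurod6 level (1795) was far above the range of the E11.5 libraries (7.10 to 78.5), and its Hmga2 level (456) was far below theirs (6296 to 8732). The first 2 principal components (31.9% and 29.0% of the variance) did not separate the genotypes when each was taken alone, and mutant 6 correlated best with control 5.

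The targeted gene was examined first. Cep135 stood at 224, 173 and 283 normalised counts in mutants 1, 2 and 6 and at 171, 176 and 271 in controls 3, 4 and 5. The groups overlapped, with a log2 fold change of 0.14 ± 0.22 (SE). A small deletion need not change the amount of a 3′-end read, so the level of this transcript does not check the genotype labels.

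Few genes passed the threshold. Of 13583 tested genes, 10 (0.0736%) passed an adjusted p of 0.05 by limma, 6 higher (0.0442%) and 4 lower (0.0294%) in mutants, while 1236 genes (9.1%) had an unadjusted p under 0.05. Neurod6, a transcription factor of young cortical projection neurons, fell, together with Mpped1, Sla and Mc4r, whereas Tmem98, Frrs1l, Cx3cr1, Rn7sk, Gm26917 and Rpl3-ps1 rose. All 10 separated the groups completely, as 1864 genes (13.7%) did, 7.02% with all mutants above and 6.71% with all mutants below the controls. The calls depended on the libraries: Tmem98 alone passed without control 4, 74 genes passed without control 5, and none passed without both controls 4 and 5 or with male embryos alone. An exact permutation test of a single gene with 3 against 3 libraries cannot go below p = 0.1, so the p-values come from the model over all genes. They measure the spread among embryos.

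Tmem98, on chromosome 11 (80810175 to 80822033, plus strand), encodes a small transmembrane protein and gave the smallest p. It stood at 565, 533 and 516 in mutants and at 156, 183 and 136 in controls. All 3 mutants were far above all 3 controls, a log2 fold change of 1.77 ± 0.15 (SE, limma adjusted p = 0.00155).

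Frrs1l, on chromosome 4 (56957173 to 56990391, minus strand), helps AMPA-type glutamate receptors to mature. It stood at 771, 428 and 341 in mutants and at 107, 76.9 and 88.1 in controls. Mutant 1 was the highest, yet the lowest mutant was still well above the highest control (log2 fold change 2.41 ± 0.26, SE).

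Cx3cr1, the fractalkine receptor of microglia, stood at 405, 390 and 304 in mutants and at 168, 159 and 174 in controls (chromosome 9, 119901616 to 120069879, minus strand; log2 fold change 1.12 ± 0.16, SE). The annotated gene overlaps Gorasp1 on the same strand, which is also measured. The groups did not overlap.

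Rn7sk, the small nuclear RNA that restrains transcription elongation, stood at 120, 155 and 88.5 in mutants and at 29.4, 14.52 and 17.4 in controls. Gm26917, an annotated non-coding gene on chromosome 17 (39843013 to 39846341), stood at 2518, 2247 and 1705 against 949, 795 and 959. Both were higher in every mutant than in any control. Rn7sk has no poly(A) tail, the feature from which these libraries were primed. Gm42418, another non-coding gene, took 9.78% to 15.0% of reads and had a log2 fold change of 0.14 ± 0.32 (SE).

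Rpl3-ps1, a processed pseudogene on chromosome X, stood at 55.3, 65.1 and 57.9 in mutants and at 16.5, 12.3 and 7.85 in controls. It shares sequence with Rpl3, so its reads are uncertain in origin.

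Neurod6 (chromosome 6, 55677822 to 55681263, minus strand) stood at 1724, 1393 and 1795 in mutants and at 2863, 2948 and 3126 in controls. The highest mutant was below the lowest control, and the log2 fold change was -0.87 ± 0.13 (SE, limma adjusted p = 0.0481). It is thus the weakest of the 10 by adjusted p.

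Mpped1, a predicted metallophosphoesterase that is abundant in developing cortex, stood at 970, 802 and 821 in mutants and at 1504, 1896 and 1755 in controls (log2 fold change -0.99 ± 0.14, SE). Sla, which encodes the Src-like adaptor protein, stood at 31.6, 34.2 and 38.4 against 102, 121 and 88.9. Mc4r, the melanocortin receptor known for control of feeding, stood at 50.8, 34.2 and 40.7 against 147, 172 and 140. In all of these the mutants lay wholly below the controls.

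**Figure D1:**
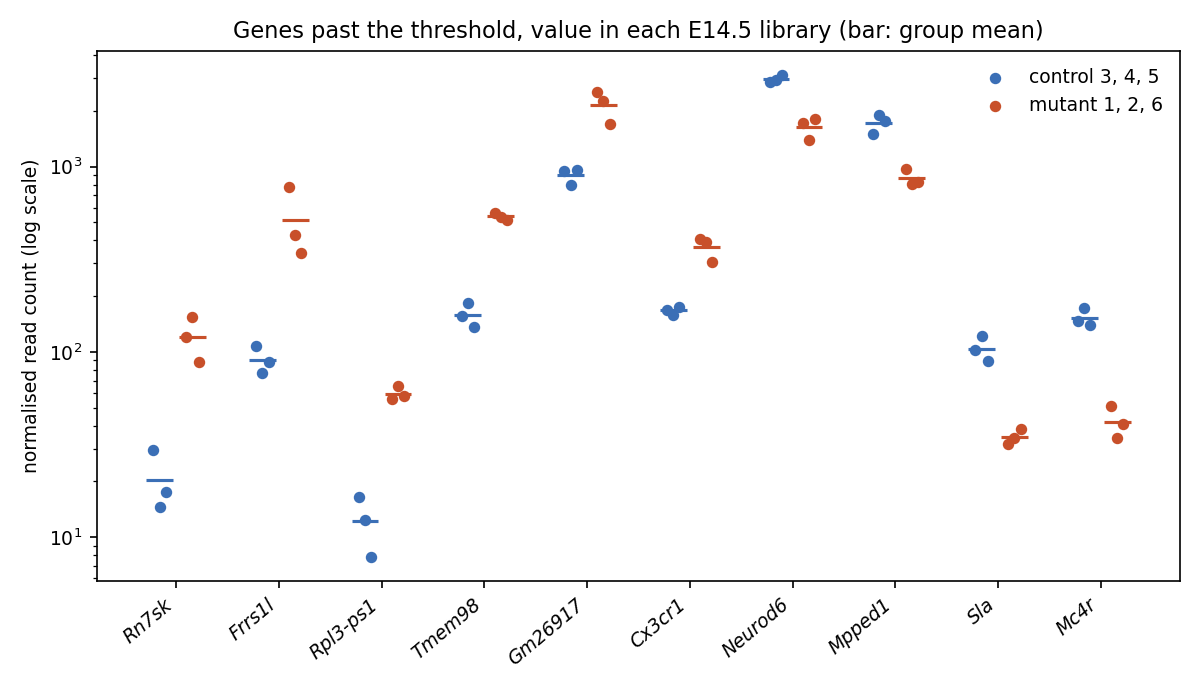
Normalised read count (log axis) of the 10 genes past an adjusted p of 0.05 in each E14.5 library, with controls 3, 4 and 5 in blue, mutants 1, 2 and 6 in orange and a bar at each group mean. In all 10 genes the 3 mutant points and the 3 control points do not overlap.

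Around these 10, neuronal identity genes were mostly on the lower side. The liver list was lower as well (7 of 7 tested at an unadjusted p under 0.05, median -3.87), from transcripts held by controls 4 and 5. Beside each count stands the background over all tested genes: 4.62% were lower and 4.48% higher in mutants at an unadjusted p under 0.05, and the median log2 fold change was 0.01. Of the 13 tested deep-layer and subplate factors, 12 had a negative value, 8 were lower at an unadjusted p under 0.05 and none was higher (median -0.34). Of the 11 upper-layer factors, 6 were lower and 1, Cux1, was higher (median -0.30). Of the 6 postmitotic bHLH factors, 4 were lower and none was higher (median -0.53). In bulk tissue, fewer cells of a type and less RNA per cell cannot be told apart.

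Sox5, which holds deep-layer neurons to their fate, stood at 1506, 1419 and 1557 in mutants and at 2266, 2771 and 2414 in controls (log2 fold change -0.73 ± 0.12, SE). Bcl11b, known for subcerebral projection neurons, stood at 4726, 4733 and 5487 against 6950, 7631 and 6684. Every mutant was below every control in both, but neither passed the threshold by limma (adjusted p = 0.112 and 0.331).

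Dok5, an adaptor of receptor kinases in the upper-layer list, stood at 206, 177 and 162 in mutants and at 274, 303 and 300 in controls. The groups did not overlap, and DESeq2 on the recovered reads called Dok5 (adjusted p = 0.036) where limma did not (adjusted p = 0.232).

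Neurod2, a partner of Neurod6 in the same lineage, stood at 2452, 2050 and 3489 in mutants and at 4021, 3959 and 4156 in controls. Mutant 6 was nearest to the controls. Bhlhe22, which guides area identity, had a log2 fold change of -0.57 ± 0.15 (SE) and Neurod1 one of -0.49 ± 0.15.

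Lists of more general neuronal genes had median differences of smaller size. Of 26 pan-neuronal genes, 21 had a negative value and 7 were lower at an unadjusted p under 0.05 (median -0.15), led by Nsg2, an endosomal protein of neurons, at 1534, 1825 and 1849 in mutants against 2856, 3148 and 2407 in controls. Tubb3, the neuronal tubulin, stood at 7339, 7335 and 7683 against 8097, 9272 and 10169. None of 23 genes of synaptic vesicle release was at an unadjusted p under 0.05 in either direction (median -0.03). Of the 5 nuclear factor I list genes, Nfib and Nfix were lower, with Nfib at 8928, 8132 and 9667 in mutants against 12022, 13352 and 12911 in controls.

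Progenitor marker lists had small median differences, of either sign. Sox2, a radial glial factor, stood at 1761, 1827 and 2178 in mutants and at 1528, 1719 and 2086 in controls, and Eomes, which marks intermediate progenitors, stood at 1633, 1424 and 1640 against 1366, 1560 and 1840. The groups overlapped in both. Among 25 radial glia genes 2 were higher and 1 was lower at an unadjusted p under 0.05 (median 0.07), and among 15 intermediate progenitor genes 1 was higher and 1 was lower (median -0.10).

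**Figure D2:**
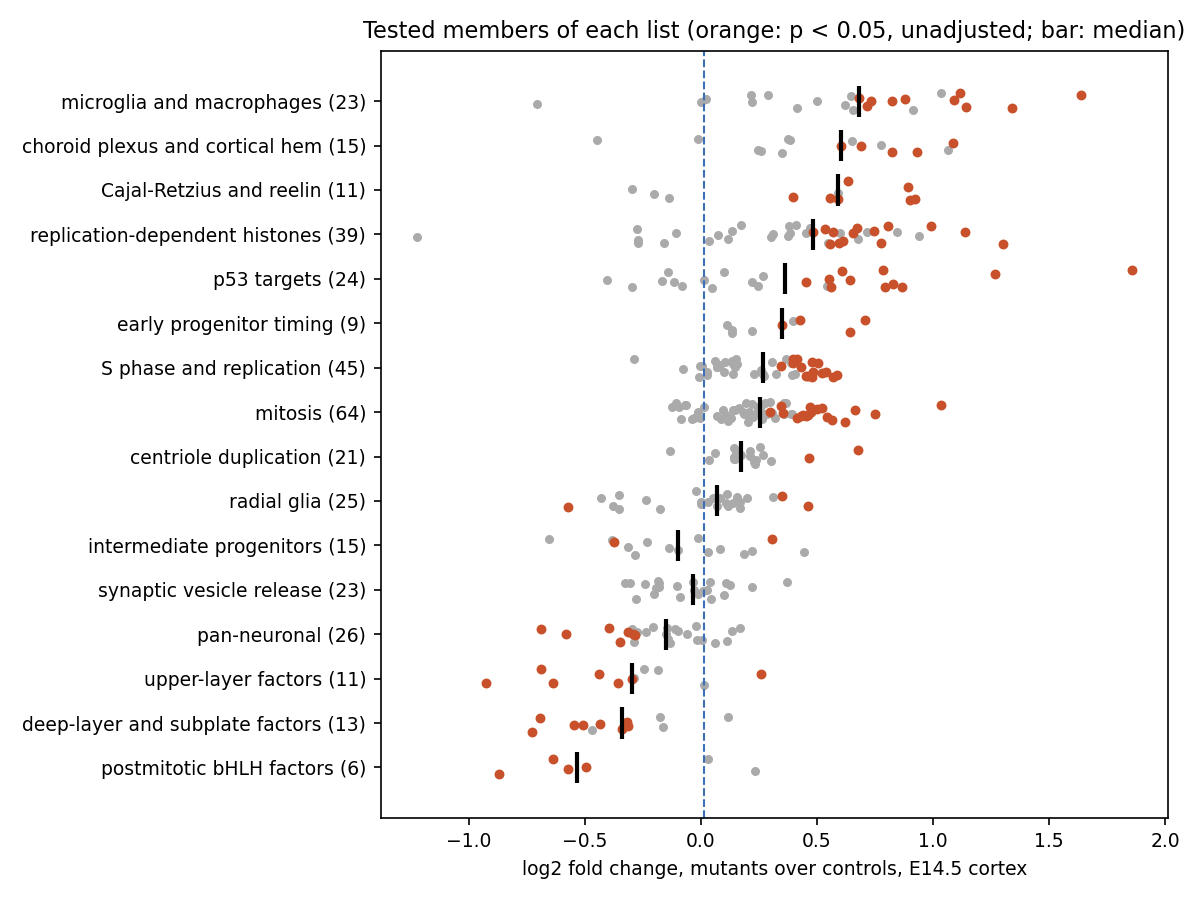
Log2 fold change (mutants over controls) of every tested member of 16 gene lists, 1 row a list with its number of tested members, orange where the unadjusted p is under 0.05, a black bar at the list median and a dashed line at the median of all tested genes. Postmitotic bHLH, layer and neuronal lists lie left of the dashed line, and microglia, Cajal-Retzius, histone, p53 and cell cycle lists lie right of it.

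Targets of p53 stood on the higher side. Of 24 tested targets, 11 were higher at an unadjusted p under 0.05 and none was lower (median 0.36), while none passed the adjusted threshold by limma and DESeq2 called 2, Cdkn1a and Eda2r. The list has 29 genes, of which 5 had a mean below 10 and were not tested.

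Cdkn1a encodes p21, the inhibitor of cyclin-dependent kinases that arrests the cycle. It stood at 550, 634 and 443 in mutants and at 358, 345 and 222 in controls. The lowest mutant was above the highest control, with a log2 fold change of 0.83 ± 0.20 (SE, limma adjusted p = 0.31, DESeq2 adjusted p = 0.036).

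Eda2r, a death-domain receptor of the TNF family, stood at 33.9, 30.9 and 38.4 in mutants and at 8.23, 13.1 and 6.10 in controls. Ccng1, which feeds back on p53 through phosphatase recruitment, stood at 192, 189 and 189 against 119, 119 and 126. Phlda3, an inhibitor of Akt, stood at 33.9, 36.4 and 50.9 against 14.1, 11.6 and 24.4. In these 3 genes the groups did not overlap.

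Bax, which permeabilises mitochondria in apoptosis, stood at 221, 194 and 130 in mutants and at 102, 116 and 132 in controls. Mutant 6 alone fell among the controls. Mdm2, the ubiquitin ligase that limits p53 and is itself a target, stood at 351, 350 and 478 against 328, 396 and 439 and did not separate the groups (log2 fold change 0.01 ± 0.17, SE). The Trp53 transcript had a log2 fold change of 0.09 ± 0.23 (SE). Among 22 apoptosis regulators and caspases 2 were higher and none was lower (median 0.01).

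The promoters of 3 of these targets are shown because p53 acts through paired half-sites in DNA, and they carry different matches beside different expression values. Each window runs from 250 bases before to 50 bases after a RefSeq transcript start on GRCm38.p6, read 5′ to 3′ on the strand of the gene, with matches to the p53 half-site in capitals and, for Cdkn1a, the stretch that spans 2 half-sites with 0 to 13 bases between them. The windows are chr17:29090729-29091028 (plus strand) for Cdkn1a, chr11:40755237-40755536 (minus strand) for Ccng1 and chr10:117710709-117711008 (minus strand) for Mdm2. Windows were printed only where they held a match, so any other start of these genes without a match is not shown.
Cdkn1a: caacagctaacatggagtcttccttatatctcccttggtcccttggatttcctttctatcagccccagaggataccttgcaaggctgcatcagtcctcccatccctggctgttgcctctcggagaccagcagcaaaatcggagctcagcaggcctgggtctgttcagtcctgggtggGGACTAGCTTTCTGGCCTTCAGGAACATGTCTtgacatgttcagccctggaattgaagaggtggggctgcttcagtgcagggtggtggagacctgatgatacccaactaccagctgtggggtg
Ccng1: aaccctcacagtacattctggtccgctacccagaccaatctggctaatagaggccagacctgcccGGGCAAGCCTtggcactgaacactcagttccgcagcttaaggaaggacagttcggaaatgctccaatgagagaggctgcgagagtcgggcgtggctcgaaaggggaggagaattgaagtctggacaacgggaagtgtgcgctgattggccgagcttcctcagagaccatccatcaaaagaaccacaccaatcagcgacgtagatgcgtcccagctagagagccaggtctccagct
Mdm2: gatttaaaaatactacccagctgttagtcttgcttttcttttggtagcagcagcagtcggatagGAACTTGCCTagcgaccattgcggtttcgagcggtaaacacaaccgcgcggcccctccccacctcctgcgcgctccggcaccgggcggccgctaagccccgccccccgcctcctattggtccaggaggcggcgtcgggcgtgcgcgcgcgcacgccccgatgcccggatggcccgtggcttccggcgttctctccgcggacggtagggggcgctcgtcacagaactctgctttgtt
A full site stood in 24 of 32851 promoter windows (0.0731%) and among the 29 windows of the p53 list only in that of Cdkn1a. Half-sites stood in 10 of those 29 windows (34.5%), which cover 21 genes of the list, and in 8.36% of all windows. The half-site pattern reads the same on both strands. A half-site was in the window of Ccng1 and in that of Mdm2, of which the first gave a log2 fold change of 0.64 and the second one of 0.01.

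Genes of division were likewise higher. Of 64 mitosis genes 18 were higher at an unadjusted p under 0.05 and none was lower (median 0.25). Without mutant 6, 11 were higher, against 1097 of 13477 among all tested genes in that fit, and the median was 0.13. Of 45 genes of S phase and replication 15 were higher and none was lower (median 0.27). None passed the adjusted threshold by limma or DESeq2. Top2a, the topoisomerase that untangles chromosomes, stood at 8797, 7832 and 8924 in mutants and at 5648, 5746 and 7041 in controls. Cdca5, which encodes sororin and holds sister chromatids together, stood at 114, 117 and 90.0 against 58.8, 63.9 and 66.3. Mcm5, a subunit of the replicative helicase, stood at 492, 522 and 554 against 353, 333 and 396. The mutants lay above the controls in all 3. That held for 14 of the 64 mitosis genes and 12 of the 45 S phase genes, against 7.02% of all tested genes. The summed mitosis list overlapped (44897, 41750 and 54998 in mutants, 35803, 36021 and 43974 in controls). The summed S phase list did not (19769 to 22029 in mutants, 15320 to 18202 in controls).

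The promoters of Cdca5 and Top2a, the mitosis genes with the smallest p, are shown because cell cycle genes share short promoter elements. Capitals mark TTTGAA, the core of the cell cycle homology region, and CCAAT, on either strand. The windows are chr19:6084847-6085146 (plus strand) and chr11:99024140-99024439 (minus strand), again printed only where they held a match.
Cdca5: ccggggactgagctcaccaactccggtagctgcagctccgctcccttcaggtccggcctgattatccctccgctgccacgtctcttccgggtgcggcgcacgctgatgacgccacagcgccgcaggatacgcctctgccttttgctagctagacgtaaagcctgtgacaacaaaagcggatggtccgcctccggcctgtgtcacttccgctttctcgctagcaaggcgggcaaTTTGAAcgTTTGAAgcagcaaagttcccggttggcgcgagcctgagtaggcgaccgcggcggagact
Top2a: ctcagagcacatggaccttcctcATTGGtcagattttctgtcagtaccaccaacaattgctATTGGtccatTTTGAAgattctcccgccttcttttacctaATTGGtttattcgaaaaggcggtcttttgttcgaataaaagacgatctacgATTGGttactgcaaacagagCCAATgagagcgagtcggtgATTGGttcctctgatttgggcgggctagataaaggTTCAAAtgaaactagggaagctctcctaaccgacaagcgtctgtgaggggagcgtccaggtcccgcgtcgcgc
TTTGAA stood in 45 of 60 windows of the mitosis list (75.0%) against 17.9% of all windows, and CCAAT in 44 of them (73.3%) against 37.4%. These 60 windows cover 56 genes. In the windows printed, no match of one motif overlapped a match of the other. In the S phase list TTTGAA stood in 5 of 43 windows (11.6%), which cover 37 genes. A match describes the letters and says nothing of binding.

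Replication-dependent histone genes, whose transcripts peak with S phase, had a median log2 fold change of 0.48 over 39 tested of 70 (14 higher and none lower at an unadjusted p under 0.05). Hist2h2ac stood at 550, 644 and 428 in mutants and at 300, 242 and 266 in controls. DESeq2 called 3 of them, Hist2h2ac, Hist1h1e and Hist1h2af. Several have near-identical copies, so reads may be split among them. With male embryos alone the median was 0.24, and without controls 4 and 5 it was 0.44.

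Of 21 genes of centriole duplication, 20 had a positive value and 2, Cep152 and Stil, which serve the recruitment and assembly of the cartwheel, were higher at an unadjusted p under 0.05 (median 0.17). The summed level of this list overlapped, at 10382 to 11814 in mutants and at 9221 to 10416 in controls. Stil stood at 113, 88.3 and 153 in mutants and at 52.9, 72.6 and 95.9 in controls, with overlap. Of 26 tested microcephaly genes 3 were higher and 1, Mfsd2a, was lower (median 0.15). Mcph1, a regulator of chromosome condensation, stood at 143, 121 and 126 against 75.3, 73.3 and 83.7. Of genes of early progenitor timing, 9 of 9 had a positive value and 4 were higher (median 0.35). The summed level of that list overlapped, at 10371, 10983 and 13813 in mutants and at 8785, 8956 and 12586 in controls. Hmga2, a chromatin protein of young progenitors, stood at 356, 323 and 456 in mutants and at 225, 230 and 267 in controls.

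Microglial genes were higher as well. Of 23 tested, 22 had a positive value and 10 were higher at an unadjusted p under 0.05 (median 0.68). Beside Cx3cr1, which passed, DESeq2 called C1qa, C1qb and C3ar1. C1qa, a chain of the complement starter C1q, stood at 100, 132 and 120 in mutants and at 58.8, 52.3 and 52.3 in controls. The summed level of the list was 1577, 1918 and 1550 in mutants and 983, 942 and 1033 in controls. The summed endothelial and pericyte list ranged from 2620 to 3074 in mutants and from 2656 to 3044 in controls, with overlap.

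Genes of Cajal-Retzius cells, which spread through the marginal zone, and of the hem, at the medial edge of the cortex, had higher values too. Of 11 Cajal-Retzius and reelin genes 7 were higher and none was lower (median 0.59), with Ebf2 at 160, 152 and 141 in mutants against 63.5, 76.9 and 108 in controls and Reln, the secreted glycoprotein that orders the layers, at 501, 491 and 556 against 399, 412 and 365. Of 15 choroid plexus and hem genes 5 were higher and none was lower (median 0.61). Wnt8b, a ligand of the hem, stood at 247, 331 and 174 against 133, 120 and 128, and Rspo1, which amplifies Wnt signals, at 90.3, 93.8 and 80.7 against 35.3, 46.5 and 41.8. Ttr, the marker of choroid plexus epithelium, stood at 7339, 5990 and 681 against 4899, 5083 and 3055, so that mutant 6 was the lowest of all. The summed hem and choroid list, most of it Ttr in all libraries but mutant 6, was 8940, 7931 and 2121 in mutants and 6023, 6192 and 4166 in controls. The part of these neighbouring tissues in the hem and Cajal-Retzius values was not tested.

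**Figure D3:**
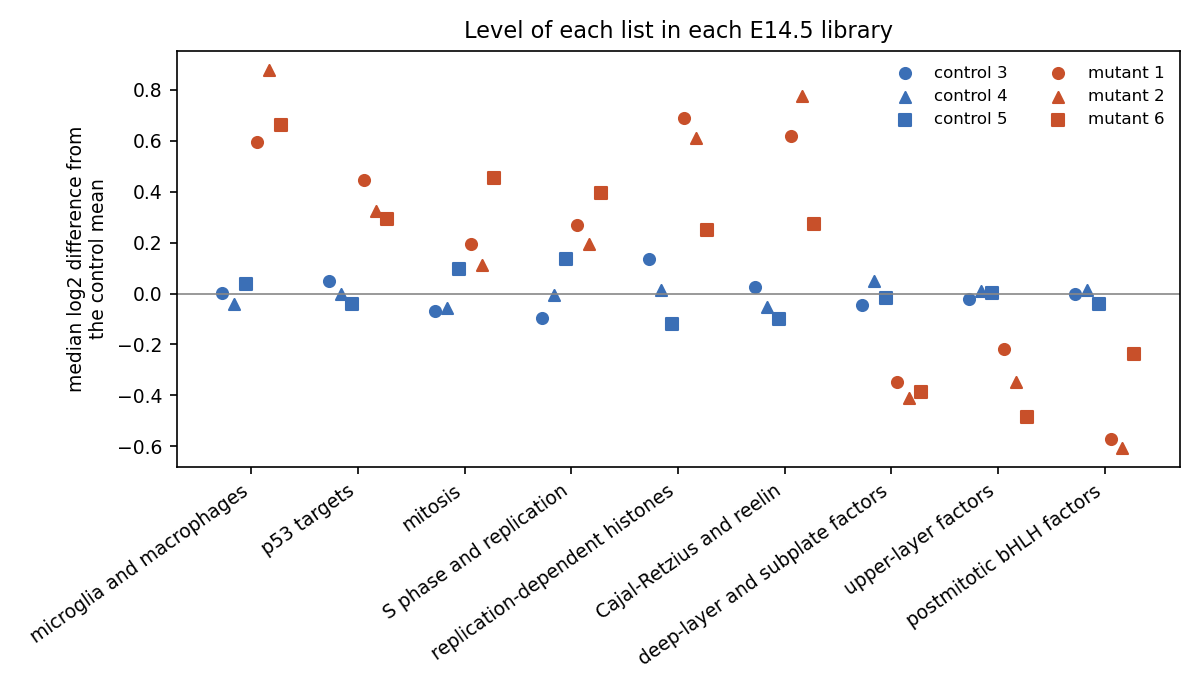
Median over the tested members of 9 lists of the log2 difference from the control mean, for each of the 6 libraries (controls blue, mutants orange). Mutants 1, 2 and 6 all lie above 0 for microglia, p53, mitosis and S phase genes and below 0 for deep-layer, upper-layer and bHLH genes, and mutant 6 is the furthest from 0 of the mutants for mitosis and the nearest to 0 for bHLH factors.

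The lists were followed without the libraries in doubt. With mutant 6 against the 3 controls, all male, no gene passed the threshold (640 at an unadjusted p under 0.05), but these list medians kept their sign: 0.63 for microglia, 0.29 for p53 targets, 0.45 for mitosis, -0.38 for deep-layer factors, -0.48 for upper-layer factors and -0.24 for bHLH factors. The Cajal-Retzius median became 0.27 and the hem median 0.12. The small medians of the nuclear factor I, intermediate progenitor and apoptosis lists changed sign (-0.13 to 0.02, -0.10 to 0.06 and 0.01 to -0.07). With the 3 mutants against control 3 alone, no gene passed either (1179 at an unadjusted p under 0.05) and those medians were 0.66, 0.30, 0.28, -0.37, -0.36 and -0.57. The Cajal-Retzius median was then 0.50 and the hem median 0.33. In each of these the lone library was assumed to vary like the others.

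Position in the genome was examined next. The median log2 fold change of the 19 autosomes ranged from -0.02 to 0.04. Among the 100 tested genes nearest to Cep135 on chromosome 5, up to 12.9 Mb away, 5 were higher and 4 were lower at an unadjusted p under 0.05, none passed by limma, and DESeq2 called 1, Epha5, an ephrin receptor 7.62 Mb away. Epha5 stood at 1800, 1338 and 1675 in mutants and at 2566, 2333 and 2335 in controls.

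The E11.5 cortex, taken from other embryos, offered a second look at the same genotype. Tmem98 stood there at 755, 1248 and 826 in the 3 mutants and at 320, 297 and 281 in the 3 controls (log2 fold change 1.62 ± 0.17, SE, limma adjusted p = 0.0352). Calcoco1, a selective autophagy receptor, stood at 533, 713 and 555 against 280, 190 and 207 at E11.5 (adjusted p = 0.0479 by limma) and at 1190, 1182 and 749 against 512, 563 and 296 at E14.5 (adjusted p = 0.192). These were the only 2 genes that passed at E11.5, of 13406 tested. Here the mutants held the liver transcripts: all 6 tested genes of the liver list were higher at an unadjusted p under 0.05 (median 3.01), and Alb stood at 58.1, 0 and 283 in mutants and at 0 in every control. Frrs1l did not separate the groups at E11.5 (137, 253 and 148 in mutants against 117, 193 and 262 in controls).

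At E11.5, 3.82% of all tested genes were higher and 3.57% lower at an unadjusted p under 0.05. Of the lists, the p53 targets had 10 of 27 higher and none lower (median 0.24) and microglia 8 of 21 higher and none lower (median 0.56). Eda2r stood at 28.4, 35.7 and 31.0 in E11.5 mutants against 4.03, 3.35 and 4.66 in controls. The mitosis list had 1 higher and 1 lower of 64 (median 0.05), and the deep-layer list had none in either direction (median -0.08). Other neuronal lists were on the lower side: 8 of 26 pan-neuronal genes (median -0.33), 4 of 23 genes of synaptic vesicle release (median -0.31), 7 of 21 genes of ventral telencephalon and interneurons (median -0.37) and 2 of 6 postmitotic bHLH factors (median -0.37) were lower, and none of these was higher. No single gene differed in genotype effect between the ages by limma (0 of 13650, 0%, with 1070 at an unadjusted p under 0.05), so no gene of these lists was shown to differ between the ages.

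The 12 h and 24 h cultures carry the same 6 sample numbers as the cortices. The labels do not say in words that a shared number means a shared embryo, but if so, the cultures are no independent look at the genotype. Frrs1l stood at 891, 357 and 544 in mutant 24 h cultures against 135, 84.3 and 123 in controls, and Cdkn1a at 2158, 2248 and 2222 against 1050, 1348 and 920. In the 24 h cultures 36 of 13300 tested genes passed (0.271%), and of the 9 genes called at E14.5 that were tested there 3 were among them, Frrs1l, Gm26917 and Neurod6. In the 12 h cultures no gene passed (650 at an unadjusted p under 0.05). C1qa, the microglial gene, ranged from 1.57 to 6.07 in the 12 h cultures and from 0 to 21.3 in the 24 h cultures, all below its lowest cortex level at E14.5.

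No gene differed in genotype effect between cortex and 12 h culture or between cortex and 24 h culture by limma without a block (0%, with 724 and 836 genes at an unadjusted p under 0.05). With the sample number as a block, which rests on that pairing, the counts were 3 (0.0221%) and 6 (0.0442%). Rn7sk was among both, as it stood at 2345, 3539 and 1544 in mutant and 2500, 2541 and 1461 in control 12 h cultures, far above its cortex level in either genotype.

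**Figure D4:**
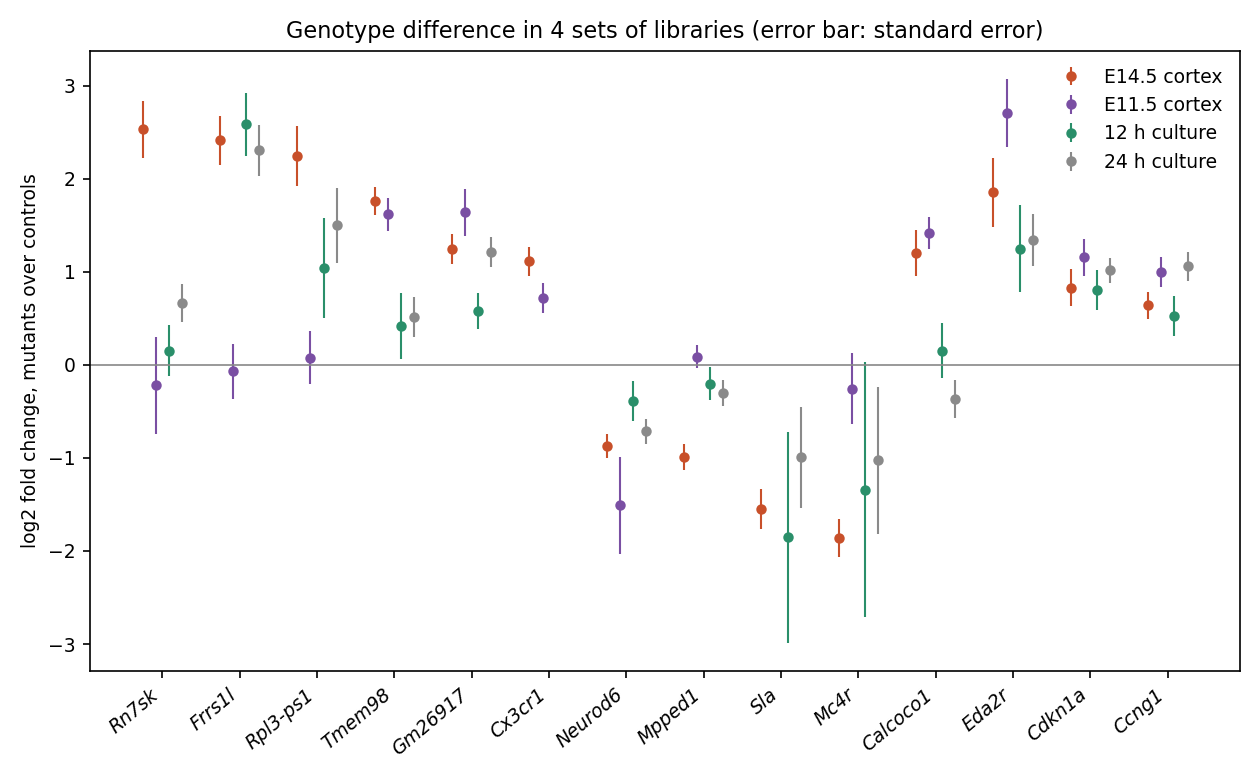
Log2 fold change of mutants over controls with its standard error for the 10 genes called at E14.5 and for Calcoco1, Eda2r, Cdkn1a and Ccng1, in E14.5 cortex (orange), E11.5 cortex (purple), 12 h cultures (green) and 24 h cultures (grey), with untested genes left blank. Tmem98 is as high at E11.5 (1.62) as at E14.5 (1.77), and Frrs1l is near 0 at E11.5 (-0.07) and high in both cultures (2.59 and 2.31).

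The choice of method changed how many genes were named. DESeq2 on the recovered reads called 64 genes (0.471%), 29 higher (0.214%) and 35 lower (0.258%), among them all 10 of limma. Quasi-likelihood edgeR called 9 and left out Neurod6 (adjusted p = 0.0787). Neurod6 also missed the threshold with a mean of at least 50 (limma adjusted p = 0.0522). A fit over all 24 libraries called 8 and left out Neurod6, Mc4r, Sla and Cx3cr1 (adjusted p = 0.999 for each) while adding Dpy19l1 and Sox5. Of the 64, 2 had overlapping groups, Apoa2 and Xist. Apoa2 is a liver transcript absent or nearly so in control 3, and Xist follows embryo sex. Ahsg, of the liver list, stood at 1.13, 1.10 and 0 in mutants and at 1.18, 44.3 and 47.9 in controls 3, 4 and 5. Hpx stood at 0, 1.10 and 0.78 against 1.18, 77.7 and 82.8, so both were high only in controls 4 and 5. Among the rest, Ier5, an immediate early response gene, stood at 701, 650 and 646 in mutants against 1122, 1353 and 985 in controls, and Mt1, which binds metals, at 402, 448 and 412 against 208, 245 and 265.

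**Figure D5:**
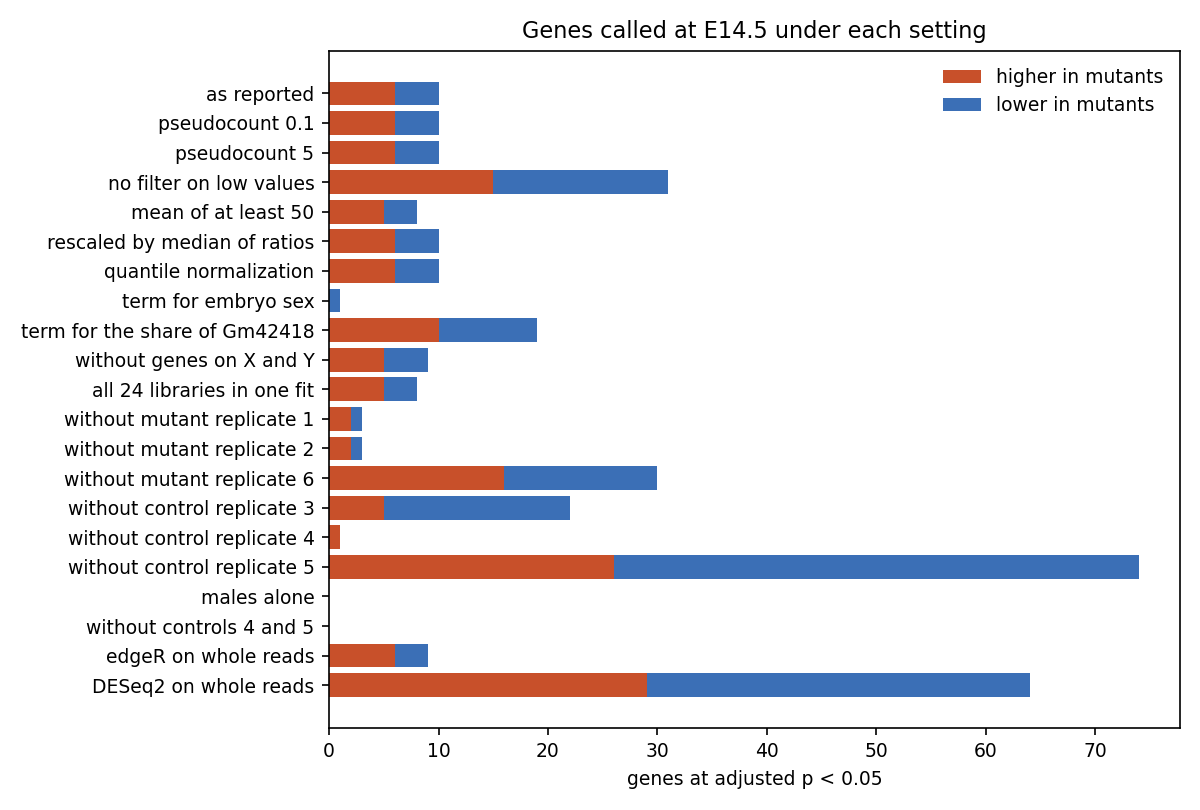
Number of genes at an adjusted p under 0.05 in the E14.5 comparison under each setting, split into higher (orange) and lower (blue) in mutants. Counts run from 0 with males alone or without controls 4 and 5 to 74 without control 5, around the 10 reported.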

How the data were processed

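3′-end mRNA libraries (QuantSeq) were prepared by the authors, and each cortex library was taken as 1 embryo. The authors aligned reads to GRCm38 with TopHat2 2.0.10 on Bowtie 1.0.0, using SAMtools 0.1.19, counted them by strand per gene with HTSeq 0.6.1 and deposited a table of signal per gene: read counts divided by 1 size factor per library. Every value above 0 in the 24 libraries was a whole multiple of 1 read (484666 of 484666, tolerance 0.1 read; 100% whole), so reads were recovered for edgeR and DESeq2. Values were taken as log2(value + 1), and fold changes are on that scale, which understates the change of low genes. The 13583 of 54658 genes that averaged 10 or more across the 6 cortex libraries were tested with limma 3.58.1 (trend, R 4.3.3) and Benjamini-Hochberg adjustment at 0.05; edgeR 4.0.16 and DESeq2 1.42.0 were alternatives. Scripts were tested on simulated data. DESeq2 gave no adjusted p for 539 genes.

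Named genes were those called by limma, the smallest p on each side among separated genes, the leading members of each list, the leading DESeq2 calls, and Cep135 and Cdkn1a; Bax and Gm42418 were added after their values were seen. All 44 lists and the members were chosen with earlier results of these data known. Cortex and cultures were paired by sample number, which the labels share without naming the embryo: all 6 numbers had 1 sex over their 3 libraries, and the correlation of same-numbered deviations ranged from -0.12 to 0.24 (above 0.1 in 8 of 12 pairs). Promoters are RefSeq's on GRCm38.p6; positions are GENCODE vM21's, on GRCm38. Of the E11.5 mutants, 2 differ by a letter between title and description, and the columns carry the description.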

Additional observations from a re-analysis of the deposited data

Results flagged for a closer look

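The genotype effect in culture differed from that in E14.5 cortex for 9 gene and culture pairs when the sample number, taken as the embryo, was a block (limma, adjusted p between 0.0139 and 0.0381). Against the 12 h cultures, the difference of log2 fold changes (culture minus cortex) was 6.23 for Alb, 6.63 for Serpina1e and -2.38 for Rn7sk. Against the 24 h cultures, it was 10.35 for Alb, 10.74 for Serpina1e, -1.87 for Rn7sk, -1.58 for Calcoco1, 1.36 for Myl12a and 2.28 for S100a6. Alb and Serpina1e are liver transcripts, present in E14.5 cortex only in controls 4 and 5 (Alb at 319 and 289). Alb stood at 107, 57.9 and 206 in the mutant 12 h cultures. S100a6, a calcium-binding protein, stood at 80.2, 132 and 108 in mutant cortex against 126, 99.4 and 128 in control cortex, and at 408, 1126 and 583 in mutant 24 h cultures against 115, 211 and 134 in control cultures. Without the block, none of these differences passed the threshold.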

How the results depend on the processing

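The 10 genes called at E14.5 became 31 with no filter on low values, 1 with a term for embryo sex (Ttr, whose genotype estimate then rests on mutant 6 alone), 19 with a term for the share of Gm42418 and 64 with DESeq2. With males alone and without controls 4 and 5, both chosen after seeing the data, 0 genes were called by limma (640 and 1179 at an unadjusted p under 0.05). Leaving out 1 library gave 1 to 74 genes: 3 without mutant 1, 3 without mutant 2, 30 without mutant 6, 22 without control 3, 1 without control 4 (Tmem98) and 74 without control 5. Pseudocounts of 0.1 and 5, rescaling, quantile normalization and an adjusted p of 0.1 gave 10 each. No paired analysis was possible for mutants against controls because the genotypes share no sample number. Against the cultures, the replicate block on sample number moved the count of genes with a different genotype effect from 0 to 3 (12 h) and from 0 to 6 (24 h). Leaving out 1 library gave 0 to 1 genes against E11.5, 0 to 1 against 12 h and 0 to 17 against 24 h (17 without control 3 of the E14.5 cortex). Direction reversed for Ttr (0.073 by edgeR and 0.080 by DESeq2, and from -1.07 without mutant 1 to 0.65 without mutant 6), Mdm2 (-0.0052 rescaled, and from -0.13 without mutant 6 to 0.11 without control 5), Cep135 (-0.032 without mutant 6 to 0.35 without control 5), Xist (-0.062 with the sex term) and S100a6 (-0.33 without mutant 2 to 0.031 without mutant 1). None of the other genes followed across the settings changed direction. Not every gene in the text was followed: Gm42418, Eomes and Trp53, among others, were left out. Where no cause is named, the cause was not tested.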

Other observations

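Embryonic beta-globin Hbb-y stood at 6765, 6897 and 6761 in E14.5 mutants and at 3403, 4745 and 5407 in controls, above all controls, while the summed erythroid list ranged from 38711 to 45099 in mutants and from 38298 to 45429 in controls. Dcc, the netrin receptor, stood at 265, 191 and 159 in mutants against 124, 127 and 119 in controls, and Chl1, a neural adhesion molecule, at 2179, 2058 and 1470 against 2548, 2726 and 2947. Of 26 genes of hypoxia and glycolysis, 6 were higher and 1 was lower at an unadjusted p under 0.05 (median 0.06), and of 21 imprinted growth genes 4 were higher and none was lower (median 0.21). None of these genes passed the adjusted threshold by limma.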
